A study of Mus musculus with 18 samples.

Results

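First exons of coding transcripts held 822 of the 41084 differential m6A peaks that were listed for the mouse uterus in 4 tables (2.001%), and these peaks lay in 570 host genes. A peak was counted when its annotation named an exon of a coding RefSeq transcript (identifier NM_ or XM_) and placed the peak in exon 1 of that transcript, and the gene named beside the transcript was taken as the host. Peaks in internal exons (10009) and last exons (2294) of coding transcripts, chosen in the same way, served for comparison. Of the first-exon peaks, 215 were up and 111 were down in LPS vs Veh, and 399 were up and 97 were down in Mel+LPS vs LPS. The down table of LPS vs Veh was complete for chromosomes 1 to 9, so that every share of up and down peaks in that comparison is given for these chromosomes.

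The tables came from m6A-seq of whole uterus taken on day 5 of pregnancy (D5) from wild-type ICR mice that were 8 weeks old at purchase. Saline vehicle (Veh) was injected into the peritoneum daily from D1 to D4, LPS mice also received lipopolysaccharide at 0.5 mg/kg on D3 and D4, and Mel+LPS mice received that LPS treatment and daily melatonin at 10 mg/kg from D1 to D4. Each treatment had 3 input libraries of fragmented RNA and 3 libraries immunoprecipitated with an m6A antibody. The value of a peak was the authors' score, the log10 likelihood ratio of a difference between both treatments, with 1 score per peak and comparison, no value per replicate and no read count, so that no replicate error and no depth can be given and nothing below was tested. How input libraries and replicates entered the score is not stated, and a changed peak, a changed transcript level and a changed number of cells of a type cannot be told apart in whole tissue. Both comparisons used the same LPS libraries, and for this reason their values are given side by side and are not independent. Intervals are 95% intervals over peaks (Wilson for shares, order statistics for medians), not over mice.

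N6-methyladenosine (m6A) is placed on mRNA by the METTL3-METTL14 writer complex within a short sequence motif, and it is best known near stop codons and inside long exons. Most mammalian first exons are short and carry the 5′ untranslated region and only the first codons. A long stretch of coding sequence in exon 1 is a property of intronless genes and of a few families, among them the clustered protocadherins, whose large variable exons each begin with their own promoter. In early pregnancy the uterus becomes receptive to the embryo under the ovarian hormones, and its stroma begins to decidualize.

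Peak sequences that carry the patterns described below are shown on the transcribed strand, 5′ to 3′, with GRCm38 positions and letters from mouse GENCODE release M21 transcripts. Capitals mark the m6A motif DRACH, which is A, G or T, then A or G, then A, then C, then A, C or T, searched on the transcribed strand only with overlapping matches counted. They are shown because they lie wholly in coding sequence of exon 1 and include high-scoring peaks of each table and a gene, Celsr2, with peaks of opposite direction in 1 exon.
Fam83a, chr15:57986282-57986458, plus strand, LPS vs Veh up, score 10.4: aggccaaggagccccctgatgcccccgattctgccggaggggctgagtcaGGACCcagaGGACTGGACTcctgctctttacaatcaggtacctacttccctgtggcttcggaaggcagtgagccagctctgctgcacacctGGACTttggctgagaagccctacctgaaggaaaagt
Celsr2, chr3:108413009-108413137, minus strand, LPS vs Veh up, score 8.1: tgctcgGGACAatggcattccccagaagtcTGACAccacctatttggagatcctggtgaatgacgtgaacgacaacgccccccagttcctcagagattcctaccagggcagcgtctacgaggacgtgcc
Celsr2, chr3:108412692-108412910, minus strand, LPS vs Veh down, score 8.51: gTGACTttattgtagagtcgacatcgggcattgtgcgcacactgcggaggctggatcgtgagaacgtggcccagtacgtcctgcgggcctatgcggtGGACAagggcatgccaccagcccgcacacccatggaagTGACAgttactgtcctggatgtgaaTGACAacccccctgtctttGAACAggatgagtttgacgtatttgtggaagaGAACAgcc
Celsr2, chr3:108412392-108412498, minus strand, Mel+LPS vs LPS down, score 6.29: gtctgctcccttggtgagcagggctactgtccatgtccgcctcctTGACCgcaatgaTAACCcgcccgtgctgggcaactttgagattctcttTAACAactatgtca
Foxc2, chr8:121117663-121117786, plus strand, LPS vs Veh down, score 8.42: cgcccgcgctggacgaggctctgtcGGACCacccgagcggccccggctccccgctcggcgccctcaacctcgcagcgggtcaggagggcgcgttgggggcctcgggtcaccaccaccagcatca
Zbed6, chr1:133658395-133658593, minus strand, LPS vs Veh down, score 6.29: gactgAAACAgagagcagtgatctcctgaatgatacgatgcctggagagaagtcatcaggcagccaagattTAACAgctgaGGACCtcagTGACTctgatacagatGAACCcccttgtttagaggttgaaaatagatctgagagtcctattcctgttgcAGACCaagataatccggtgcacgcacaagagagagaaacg
Adamts15, chr9:30921952-30922146, minus strand, Mel+LPS vs LPS up, score 8.65: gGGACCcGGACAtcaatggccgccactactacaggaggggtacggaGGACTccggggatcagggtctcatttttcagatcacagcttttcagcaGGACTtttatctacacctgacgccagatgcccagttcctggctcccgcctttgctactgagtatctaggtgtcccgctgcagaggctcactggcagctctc
Pcdh17, chr14:84448369-84448588, plus strand, Mel+LPS vs LPS up, score 16.7: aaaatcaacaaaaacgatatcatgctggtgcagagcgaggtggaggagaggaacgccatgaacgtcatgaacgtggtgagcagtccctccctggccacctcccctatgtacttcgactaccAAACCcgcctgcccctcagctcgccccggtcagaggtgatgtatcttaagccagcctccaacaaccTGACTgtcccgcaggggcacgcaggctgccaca
Mmrn1, chr6:60944999-60945134, plus strand, Mel+LPS vs LPS up, score 8.41: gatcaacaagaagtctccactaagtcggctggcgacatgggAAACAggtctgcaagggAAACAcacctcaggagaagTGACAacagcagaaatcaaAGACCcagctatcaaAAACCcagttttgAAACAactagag
Mfsd6l, chr11:68557039-68557165, plus strand, Mel+LPS vs LPS down, score 9.05: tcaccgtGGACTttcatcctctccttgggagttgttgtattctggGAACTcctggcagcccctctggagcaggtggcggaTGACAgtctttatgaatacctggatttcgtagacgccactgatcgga
The 177 bases of Fam83a held 4 motifs, all of them beginning with GGAC and 2 of them side by side. In Celsr2, the LPS-down peak held 6 motifs, the LPS-up peak 2 and the Mel+LPS-down peak 3. In Foxc2, 75.8% of the peak bases were G or C and 1 motif was present. The Zbed6 peak held 6 motifs, the Adamts15 peak 4, the Pcdh17 peak 2, the Mmrn1 peak 6 (none of them with GGAC) and the Mfsd6l peak 3.

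The first exons that held the peaks were long. In 743 peaks the host gene was found in GENCODE on the same chromosome, and 502 of these peaks (67.6%) had their centre in exon 1 of the reference transcript, 1 transcript per gene. The 323 genes that hosted these 502 peaks had a median exon 1 of 1851 bases with 1110 coding bases in it, compared with 221 and 49 bases over 21877 coding genes, and 40.9% of them had a single exon, compared with 7.11%. Of the 523 centres that lay on any exon of the reference transcript, 522 (99.8%) were in coding sequence, 0 were in the 5′ untranslated region and 1 was in the 3′ untranslated region. The annotation lists peaks of promoters and of untranslated regions in classes of their own, so that the coding share and, in part, the length of the exons follow from the choice of peaks and are no finding. The 502 centres in exon 1 lay a median of 656.5 bases past the start codon (quartiles 293 and 1212). This median was 503.5 bases in the LPS-down table, 614.5 in the Mel+LPS-up table, 695 in the LPS-up table and 802 in the Mel+LPS-down table. The peak of Pcdh17, a protocadherin, was centred 2383 bases past the start codon in an exon of 5091 bases, and the farthest of the 4 peaks of Irs1, which encodes the insulin receptor docking protein, was centred 3577 bases past it in an exon of 4640 bases. In the annotation, 269 of the 822 peaks (32.7%, interval 29.6 to 36.0) read exon 1 of 1, with 41.9% in the LPS-up table, 26.1% in the LPS-down table, 28.6% in the Mel+LPS-up table and 37.1% in the Mel+LPS-down table.

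A second group of peaks straddled the end of a short first exon. The centre of 198 peaks (26.6%) lay in intron 1 of the reference transcript, and 191 of these touched exon 1, with a median of 27 bases inside it, in exons with a median length of 272 bases. These centres lay a median of 49 bases past the exon end (quartiles 31 and 63). A peak annotated to exon 1 touches that exon, so that a centre in intron 1 must mostly lie close to the exon end. This closeness follows from the choice of peaks and is no finding. The LPS-down peak of Lcn2, which encodes the siderophore-binding lipocalin of neutrophils and epithelia, was of this kind, with 56 of its 204 bases in an exon of 218 bases (chr2:32387432-32387635). So was the LPS-down peak of Nmb, the peptide neuromedin B, with 30 of 175 bases in an exon of 256 bases (chr7:80904676-80904850). Peaks of Nfkbia, the NF-κB inhibitor IκBα, and of the collagen genes Col3a1 and Col1a1 had 104, 39 and 58 bases in exon 1 and were all up in Mel+LPS vs LPS. In LPS vs Veh, 12 of 51 peaks centred in intron 1 were up (23.5%, interval 14.0 to 36.8), and 55 of 121 peaks centred in exon 1 were up (45.5%, 36.9 to 54.3). In Mel+LPS vs LPS, 119 of 133 peaks centred in intron 1 were up (89.5%, 83.1 to 93.6) and 234 of 295 centred in exon 1 (79.3%, 74.3 to 83.6). The intervals of both positions overlapped in Mel+LPS vs LPS and nearly met in LPS vs Veh, and the difference was not tested. For internal-exon peaks, those centred off the exons were up in 40.1% (1722 peaks) and those centred on an exon in 52.0% (999 peaks) in LPS vs Veh, and in 80.8% and 81.4% in Mel+LPS vs LPS. A remainder of 21 centres lay in another exon, 13 in a later intron and 9 before exon 1 of the reference. Among these were the Mel+LPS-up peaks of Ccser2 and Zfp950 and both peaks of Cysltr2.

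**Figure D1:**
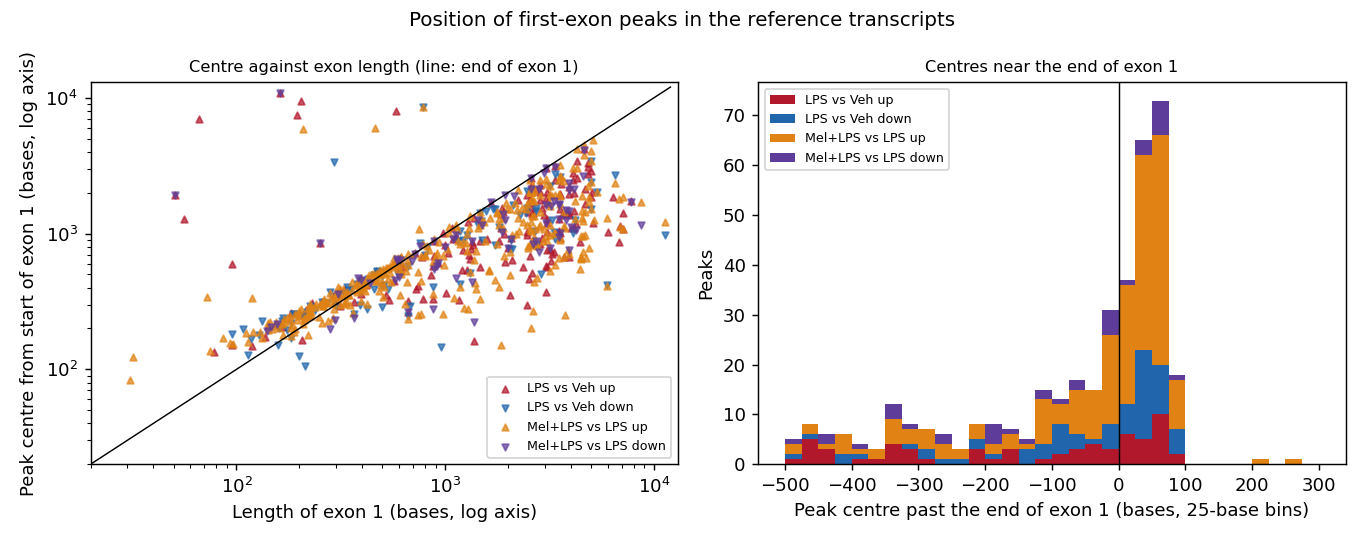
Position of the first-exon peaks in the reference transcripts. The left panel plots the genomic distance of each peak centre from the start of exon 1 against the length of exon 1 (bases, both axes logarithmic), with the line at the exon end. The right panel counts centres in bins of 25 bases around the exon end, stacked by table. Centres crowd just past the end of short exons (a median of 49 bases past it for centres in intron 1) and spread through the body of longer ones. The closeness to the exon end follows from choosing peaks annotated to exon 1.

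The m6A motif was frequent in these peaks. Motifs and GC content were counted in peaks centred on an exon of the reference transcript. These were 523 first-exon peaks, 3567 of the 10009 internal-exon peaks and 2030 of the 2294 last-exon peaks. In them, DRACH stood at 22.2, 25.7 and 24.3 per 1000 bases, in this order. DRACH was present in 506 of the 523 first-exon peaks (96.7%), and 17 held none, which says only that these letters were not in the window. The subset GGAC stood at 8.36 per 1000 bases, compared with 6.03 in internal and 5.10 in last exons, and GC content was 57.2%, compared with 50.8% and 50.4%. In windows of 200 bases around 501 coding exon-1 centres, 98.8% held DRACH and 81.4% held GGAC, compared with 93.2% and 60.5% of 11942 windows that tiled the coding part of exon 1 in all genes, expressed or not. DRACH density was 21.6 and 16.4 per 1000 bases in these 2 sets at GC contents of 57.0% and 56.9%. The 4 tables were alike in this respect, with DRACH at 20.9 per 1000 bases in the LPS-down table, 21.9 in LPS-up, 22.6 in Mel+LPS-up and 23.1 in Mel+LPS-down peaks.

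Direction followed that of internal exons more closely than that of all peaks in Mel+LPS vs LPS. In LPS vs Veh on chromosomes 1 to 9, 90 of 201 first-exon peaks were up (44.8%, interval 38.1 to 51.7), beside 49.8% of all peaks, 44.4% of internal-exon peaks and 64.9% of last-exon peaks. In Mel+LPS vs LPS, 399 of 496 were up (80.4%, 76.7 to 83.7), beside 59.3% of all peaks, 80.7% of internal-exon peaks and 68.0% of last-exon peaks. The interval of the first-exon share covered the background in the former comparison and lay above it in the latter. First exons were accordingly 2.97% of the Mel+LPS-up table (2.70 to 3.27) and 1.05% of the Mel+LPS-down table (0.864 to 1.28). On chromosomes 1 to 9 they were 1.45% of the LPS-up table (1.18 to 1.78) and 1.77% of the LPS-down table (1.47 to 2.13). Intronless hosts and hosts with several exons had up shares of 76.0% (n = 150) and 82.4% (n = 346) in Mel+LPS vs LPS, and of 54.0% (n = 63) and 40.6% (n = 138) in LPS vs Veh, with overlapping intervals in both. By length of the reference exon, 7.69% of 13 LPS vs Veh peaks centred in exons under 500 bases were up (interval 1.37 to 33.3), compared with 48.3% to 52.2% in the classes from 500 to 1000, 1000 to 2000 and at least 2000 bases.

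**Figure D2:**
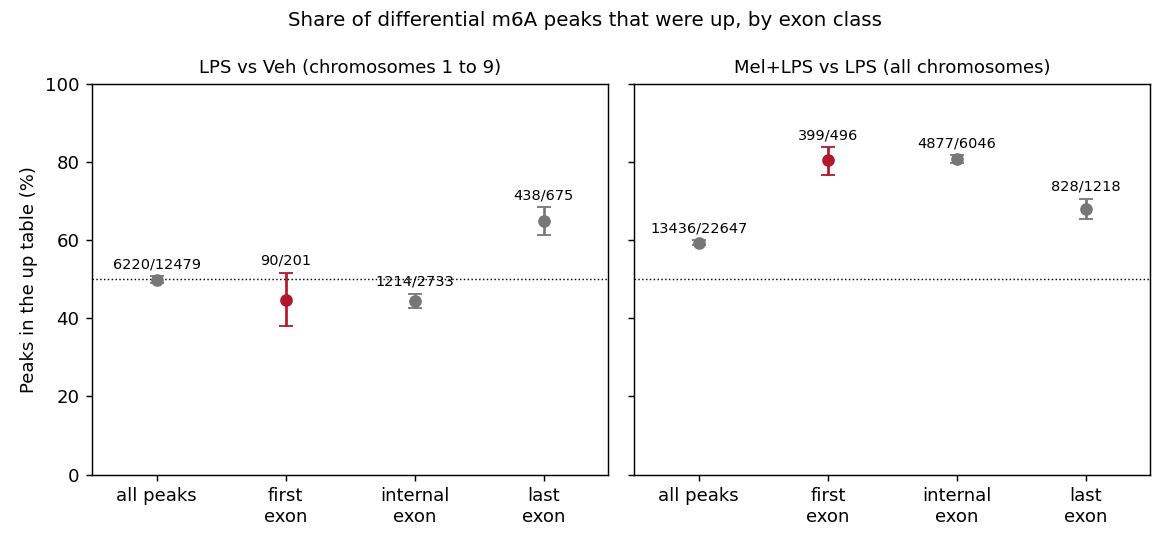
Share of peaks listed as up (percent) for all peaks and for peaks in first, internal and last exons of coding transcripts, with Wilson 95% intervals over peaks as bars the number up over the total above each point and a dotted line where as many peaks were up as down. In Mel+LPS vs LPS the first-exon share of 80.4% stands beside 80.7% in internal exons and 59.3% in all peaks.

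The scores were lower than those of the tables as a whole in 3 of the 4 tables. The median score was 2.07 (interval 1.85 to 2.37) in LPS-up first-exon peaks and 2.88 in all LPS-up peaks, 1.88 (1.62 to 2.22) and 2.67 in the LPS-down table, and 1.85 (1.65 to 2.26) and 3.09 in the Mel+LPS-down table. In the Mel+LPS-up table it was 2.09 (1.93 to 2.22) and 2.17. A score of at least 3 was reached by 74 of 215 LPS-up first-exon peaks (34.4%, beside 48.7% of the table), by 28 of 111 LPS-down peaks (25.2%, beside 46.1%), by 95 of 399 Mel+LPS-up peaks (23.8%, beside 32.7%) and by 33 of 97 Mel+LPS-down peaks (34.0%, beside 50.8%). Internal exons reached it in 36.4%, 34.4%, 29.5% and 37.6%, and last exons in 27.3%, 28.2%, 24.4% and 28.2%, in the same order of tables. Many peaks shared 1 exact score: 3.78494 was given to 1450 peaks of the LPS-up table (12.1%) and to 9 of its first-exon peaks (4.19%), among them Pcdhac2. The score 3.85169 was given to 1370 Mel+LPS-down peaks (14.9%) and to 8 first-exon peaks (8.25%), among them Foxf2 and Pcdhac2. The score 6.29388 was given to 194 Mel+LPS-down peaks (2.11%), among them Celsr2 and Pcdhga11, and 3.63445 to 761 LPS-down peaks (11.9%), among them Bmp5. Without the most shared score of each table, 31.6%, 21.7%, 23.04% and 28.1% of first-exon peaks and 41.7%, 38.8%, 30.2% and 42.2% of all peaks reached 3, in the same order of tables.

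**Figure D3:**
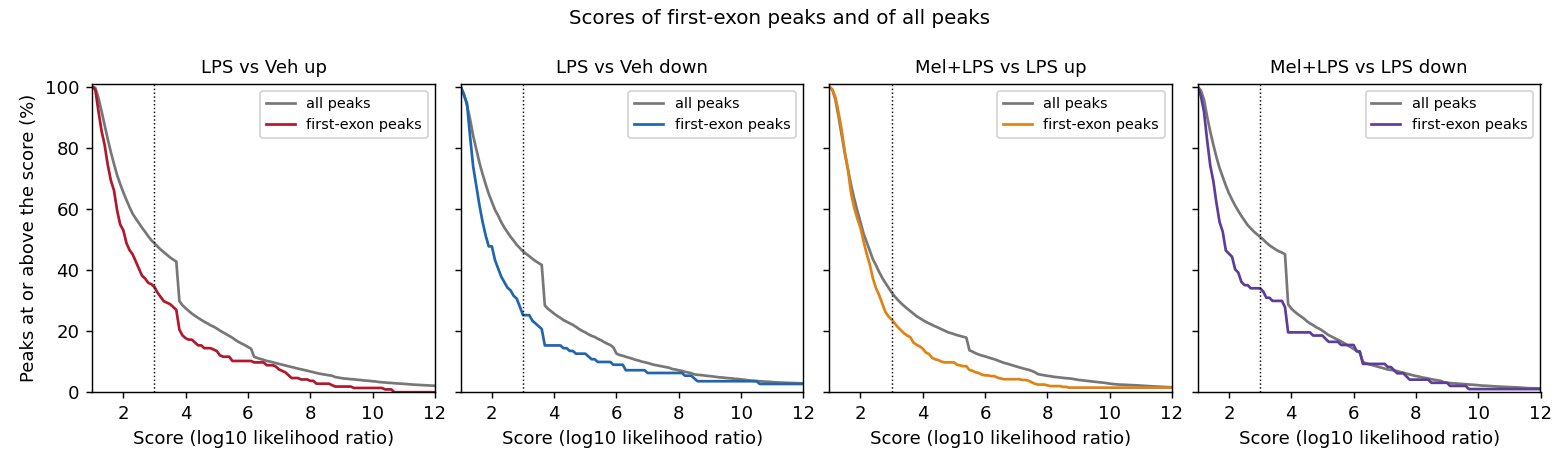
Percent of peaks at or above each score (log10 likelihood ratio) in the 4 tables, for all peaks in grey and first-exon peaks in colour, with a dotted line at 3 and the axis ending at 12. The grey curves step down at single scores shared by many peaks, such as 3.78494 in LPS-up, and the first-exon curves lie below them at 3 in every table.

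The highest scores belonged to genes of different kinds. Among LPS-up peaks, Cstdc5, a cystatin-like gene of a cluster of close copies whose reads may be shared, and Pcdhb12 had the score 10.7, Fam83a had 10.4, the scaffold copy Rad51c-2 had 9.37 and Zc3h8, which encodes a CCCH zinc finger protein, had 8.75. The peak of Fam83a is listed among the sequences above, and the same exon carried a Mel+LPS-down peak with the score 2.26 that covered nearly the same bases (chr15:57986310-57986467). Among LPS-down peaks, Lcn2 had 19.9, Nmb had 19.5, the secreted glycoprotein gene Olfm1 had 17.1, the nonmuscle myosin gene Myh14 had 10.6 and Celsr2 had 8.51. Nmb also had a Mel+LPS-up peak with the score 4.28 over the same exon end. Among Mel+LPS-up peaks, the predicted gene Gm39701 stood apart with a score of 122 (chr1:170947172-170947429), and Pcdh17 (16.7), Ccser2 (16.4), Zbed6 (15.2) and the scaffold copy Slc46a2-2 (14.9) followed. Gm39701 had another first-exon peak, LPS-up with the score 1.51, and was not placed on the reference. Among Mel+LPS-down peaks, the predicted gene Gm52512 had 13.1, Rad51c-2 had 9.62, the transporter-like gene Mfsd6l had 9.05, Pcdhb14 had 8.44 and Bin1, a membrane-curving adaptor, had 7.74. Each of Gm52512, Rad51c-2, Mfsd6l and Bin1 also had an LPS-up peak at the same place, with scores of 4.02, 9.37, 4.30 and 6.95. For Rad51c-2 and Bin1 the intervals of both tables were identical. In the reference, the Bin1 interval lay within intron 1 and touched no exon 1.

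Cadherin genes formed the largest of the 19 gene lists examined, with 98 first-exon peaks in 43 genes of protocadherins and large cadherins. The list had 128 peaks in coding-transcript exons of any rank. Over all genes, first exons held 6.26% of 13125 such peaks. Of the 98 first-exon peaks, 79 (9.61% of all first-exon peaks) lay in 37 clustered protocadherins on chromosome 18, which encode cell surface proteins that give neurons and other cells an identity code. The Pcdha cluster held 8 peaks in 3 genes, the Pcdhb cluster 40 peaks in 18 genes and the Pcdhg cluster 31 peaks in 16 genes, beside 13, 22 and 22 genes in the reference. There were 35 LPS-up peaks, 30 Mel+LPS-up peaks and 14 Mel+LPS-down peaks in the clusters. LPS-down peaks of chromosome 18 could not be counted, because the LPS-down table ended within chromosome 10. In Mel+LPS vs LPS, 68.2% of the clustered peaks were up (53.4 to 80.001), and 81.6% of first-exon peaks outside the cadherin family (77.8 to 85.0). The median score of the clustered peaks was 2.52, and their centres lay a median of 1303 bases past the start codon in exons with a median length of 2933 bases. Pcdhb12 had the highest score (10.7, LPS-up), and Pcdhb14 had the highest among the Mel+LPS-down peaks (8.44). Pcdhb13 (7.42) and Pcdhb21 (7.33) had the highest among Mel+LPS-up peaks, and Pcdhgc4 (7.28) and Pcdhb6 (7.10) followed Pcdhb12 in the LPS-up table; these 4 genes and the next were chosen after their values were seen. Pcdhga11 had an LPS-up peak (6.19) and a Mel+LPS-down peak (6.29) with identical ends, 630 bases past the start codon, and a Mel+LPS-up peak (3.85) 2013 bases past it. In Pcdhac2, LPS-up (3.78) and Mel+LPS-down (3.85) peaks had identical ends, and each carried the most shared score of its table. The centre of this Pcdhac2 interval lay off the exons of the reference transcript. Variable exons of a cluster resemble each other, and reads that match more than 1 of them may have been assigned to either.

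**Figure D4:**
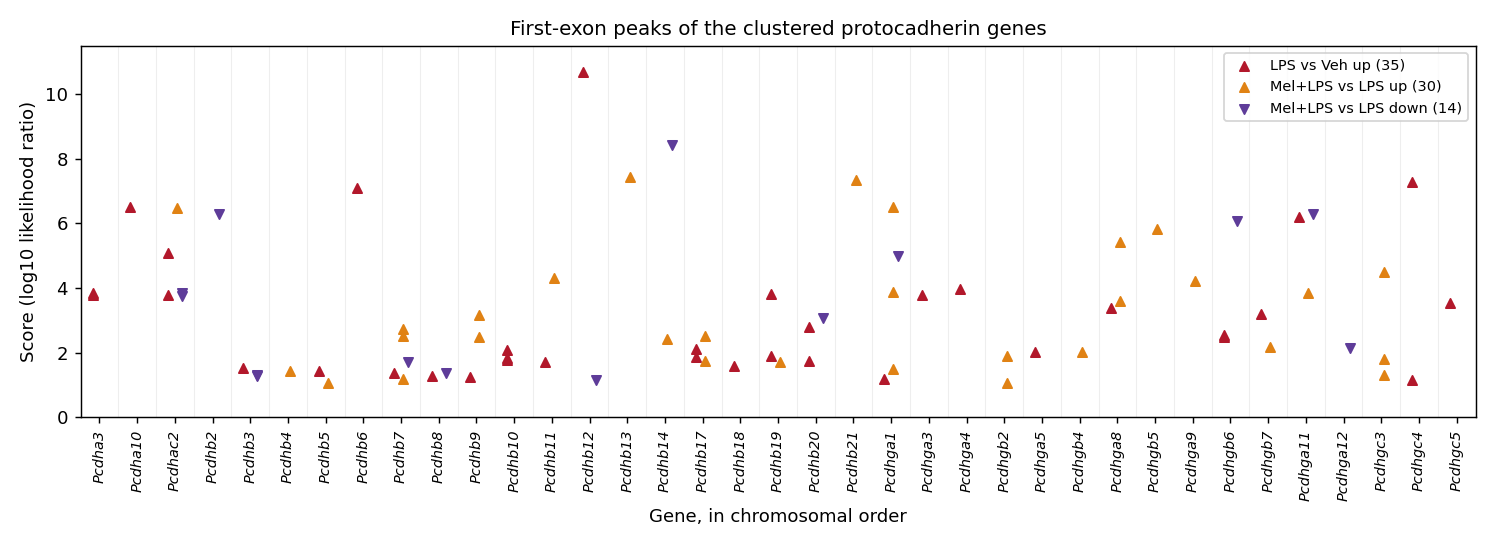
Scores (log10 likelihood ratio) of the 79 first-exon peaks of the clustered protocadherin genes, 1 column per gene in chromosomal order and 1 symbol per peak, by table. LPS-up and Mel+LPS-down peaks stand side by side in genes such as Pcdhac2 and Pcdhga11, and Pcdhb12 (10.7) and Pcdhb14 (8.44) carry the highest scores.

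Peaks of opposite direction met in single exons. Of the 570 hosts, 400 had 1 first-exon peak, 122 had 2, 29 had 3 and 19 had 4 to 9, and 429 hosts appeared in 1 table, 128 in 2, 13 in 3 and 0 in all 4. Hosts beyond chromosome 10 and on scaffolds could reach at most 3 tables, and of the 300 hosts on chromosomes 1 to 9, where all 4 tables were complete, 213 appeared in 1 table, 83 in 2, 4 in 3 and 0 in 4. The same tally was not made for other exons or for all peaks, and both comparisons shared the LPS libraries. These counts therefore show nothing particular to first exons. Zbed6, an intronless gene of domesticated transposon origin that encodes a repressor of Igf2, had the most peaks, 9 in an exon of 5007 bases. Its LPS-down peak of 6.29 (chr1:133658395-133658593, shown above) lay inside its Mel+LPS-up peak of 15.2 (chr1:133658389-133658615). Its LPS-down peaks of 3.38 and 1.08 likewise lay inside Mel+LPS-up peaks of 2.62 and 3.002, while LPS-up peaks of 2.33 and 1.19 lay between them. Celsr2, a large cadherin of planar cell polarity, had LPS-down peaks of 8.51 and 5.09 centred 2693 and 846 bases past the start codon, and LPS-up peaks of 8.10 and 5.43 centred 2421 and 3084 bases past it. Its Mel+LPS-down peak of 6.29, centred at 3049 bases, overlapped the latter LPS-up peak. Itpkc, an inositol trisphosphate kinase gene, had an LPS-down peak of 2.57 inside a Mel+LPS-up peak of 3.19, and an LPS-up peak of 3.03 nearer the start codon, 393 bases past it. Pcdh12, the protocadherin of endothelium and trophoblast, had 4 Mel+LPS-up peaks (1.37 to 3.76), and an LPS-up peak of 2.73 over a Mel+LPS-down peak of 1.60. The predicted gene Gm46911 had 6 peaks, 4 of them LPS-up (1.09 to 7.22) and 2 Mel+LPS-down (1.60 and 1.65), in an exon without a GENCODE match. Gm41844 and the scaffold copy Fv1-2 had 4 peaks each in 3 tables, Pcdhb7 had 5, and their scores ranged from 1.19 to 7.33.

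**Figure D5:**
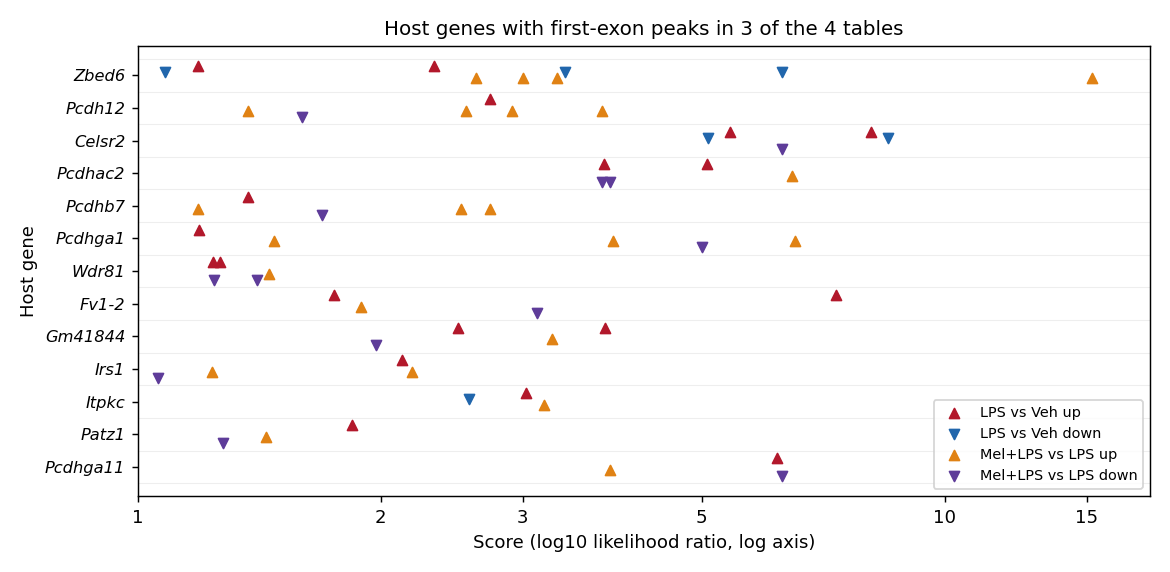
Scores (log10 likelihood ratio, logarithmic axis) of every first-exon peak of the 13 host genes with peaks in 3 of the 4 tables, 1 row per gene. LPS-down peaks could be listed for only the 4 hosts on chromosomes 1 to 9 (Celsr2, Irs1, Itpkc and Zbed6), and Zbed6 reaches the highest score (15.2).

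Transcription factor genes were among the hosts in each table. In this and the following lists LPS-up peaks were counted on all chromosomes and LPS-down peaks on 1 to 9 alone, so that the 2 counts of a list cannot be set against each other. Sox, Fox, Pou and homeobox genes had 13 peaks in 11 genes, 4 LPS-up, 4 LPS-down, 3 Mel+LPS-up and 2 Mel+LPS-down. Foxc2, a forkhead factor of lymphatic and blood vessels, had an LPS-down peak of 8.42. Msx1, a homeobox factor of uterine receptivity, had an LPS-up peak of 7.92 (chr5:37823796-37823943) and a Mel+LPS-down peak of 1.85 inside it, both at the end of exon 1. Foxf2 had a Mel+LPS-down peak of 3.85. Immediate early and bZIP genes had 9 peaks in 8 genes, with a highest score of 3.08 in Maf (LPS-up), followed by Junb (2.74) and Cebpd (2.22), both Mel+LPS-up. In a list of zinc finger genes, with 9 peaks in 8 genes, Zfp950 (12.8, Mel+LPS-up), Zc3h8 (8.75, LPS-up) and Zbtb10 (3.495, Mel+LPS-up) scored highest. This list also did not take in every such gene among the hosts. Zbed6 (highest 15.2, Mel+LPS-up), Zeb2 (2.13, LPS-up) and Zfpm1 (1.82, Mel+LPS-down) are others. The list of chromatin regulators had 3 peaks in 2 genes and did not take in every such gene among the hosts. Pcgf1 (7.97, Mel+LPS-up), Eed (1.16, Mel+LPS-up) and Ash2l (1.31, LPS-up) are others. Arid5b had an LPS-up peak of 6.97 and a Mel+LPS-down peak of 7.04 that began at the same base, and Arid1a, a subunit of the SWI/SNF remodeller, had a Mel+LPS-up peak of 2.28. In the reference, the LPS-up peak of Arid5b was centred in a later intron and touched no exon 1. The linker histone gene H1f0 had an LPS-up peak of 1.45.

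Receptor and signalling genes were represented by a few peaks each. A list of adrenergic, purinergic, Frizzled and other G protein-coupled receptors had 9 peaks in 7 genes, 5 of them Mel+LPS-up, 3 LPS-down and 1 LPS-up. In it, Adra2a, an adrenergic receptor gene, was at 4.30 (LPS-up), the purinergic receptor gene P2ry1 at 4.27 (Mel+LPS-up) and the Wnt receptor gene Fzd1 at 1.88 (LPS-down). This list did not take in every such receptor among the hosts, and those left out included Mel+LPS-down peaks. Bdkrb1 had 2 Mel+LPS-down peaks (highest 1.57). Cysltr2 had an LPS-up peak (7.16) and a Mel+LPS-down peak (1.26), and Aplnr had a Mel+LPS-up peak (1.43). Irs1 had 4 of the 7 peaks in the list of receptor adaptors and docking proteins, 2 of them Mel+LPS-up (2.19 and 1.23), 1 LPS-up (2.13) and 1 Mel+LPS-down (1.06), and Socs7 (2.12, Mel+LPS-down) and Grb2 (1.45, LPS-up) had the others with the highest scores. This list of 3 genes did not take in every adaptor gene among the hosts. Crkl (5.07) and Crk (2.69), both Mel+LPS-up, are others. Kelch, BTB and F-box genes, many of them adaptors of ubiquitin ligases, had 18 peaks in 12 genes, 6 LPS-up (2 on chromosomes 1 to 9), 1 LPS-down, 8 Mel+LPS-up and 3 Mel+LPS-down. Kbtbd7 had a Mel+LPS-up peak of 7.57, Klhdc7a had an LPS-up peak of 3.83 that overlapped a Mel+LPS-down peak of 4.60, and Kctd12 had an LPS-up peak of 4.59. Leucine-rich repeat genes had 4 peaks. Tril, a partner of the LPS receptor TLR4, had an LPS-down peak of 1.33 inside a Mel+LPS-up peak of 1.71, and Lrrc4 (1.42, LPS-up) and Lrfn4 (1.38, Mel+LPS-up) had 1 each.

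Innate immune, heat shock and matrix genes were among the 8 of 19 lists with no Mel+LPS-down peak in exon 1. The list of innate immune genes had 8 peaks in 5 genes, 2 of them LPS-down and 6 Mel+LPS-up. It did not take in every such gene among the hosts. Cgas (1 LPS-up and 2 Mel+LPS-up peaks) and Lyz2 (1 LPS-up peak, 5.08) are others. Lcn2 led with 19.9 (LPS-down), Tlr12, an endosomal sensor of microbial profilin, had Mel+LPS-up peaks of 5.65 and 1.13 and an LPS-down peak of 2.96 that held the latter, and Nfkbia had 4.30 (Mel+LPS-up). Heat shock genes had 12 peaks in 7 genes, 9 of them Mel+LPS-up, with Dnajc9 at 3.68, the scaffold copy Hspa1b-4 at 2.89 and Hspb1 at 2.88 (LPS-down), and 7 of the 12 peaks lay on scaffold copies of Hspa1a and Hspa1b, whose reads may be shared with their near-identical copies. Extracellular matrix genes had 4 Mel+LPS-up peaks and 1 LPS-down peak. Adamts15, a matrix protease gene, had a Mel+LPS-up peak of 8.65 (chr9:30921952-30922146, shown above) and an LPS-down peak of 2.20 that overlapped it (chr9:30921936-30922123), Col3a1 had 5.08 and Col1a1 had 2.35. In these 3 lists the Mel+LPS vs LPS peaks were up in 6 of 6, 9 of 9 and 4 of 4, with lower bounds of 61.0%, 70.1% and 51.0%, and each of these intervals included the 80.4% of all first-exon peaks. The bounds treat peaks as independent, which peaks of copies of a gene are not. Such peaks were those of the Hspa1a and Hspa1b copies and of the scaffold copy Tlr12-2 (2.48, Mel+LPS-up). Cytoskeletal and scaffold genes had 11 peaks in 7 genes, 5 of them LPS-down, with Myh14 at 10.6, Map4, a microtubule-binding protein gene, at 3.65, and the intermediate filament gene Synm at 2.10 (LPS-down) beside 3.61 and 2.87 (Mel+LPS-up).

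Genes of uterine receptivity and decidua, a list written after the hosts were known, had 22 first-exon peaks in 19 genes, 8 LPS-up, 4 LPS-down, 9 Mel+LPS-up and 1 Mel+LPS-down, with 4 LPS-up and 4 LPS-down peaks on chromosomes 1 to 9. Msx1 led it, Ptch1, the hedgehog receptor gene, had a Mel+LPS-up peak of 4.07 and Bmp5 had an LPS-down peak of 3.63. The progesterone receptor gene Pgr had a Mel+LPS-up peak of 1.61, and Hand2, a progesterone target in stroma, had an LPS-down peak of 1.64 and a Mel+LPS-up peak of 1.42; both genes were chosen after their values were seen. Of 8 TGF-β and BMP pathway peaks, Nedd4 (5.13, Mel+LPS-down), a ubiquitin ligase gene, Gdf6 (3.81, LPS-up) and Bmp5 had the highest scores. The inhibitory Smad genes Smad6 (2.63) and Smad7 (2.17), chosen likewise, were Mel+LPS-up. Of the m6A machinery, Rbm15b, a subunit of the writer complex, had an LPS-down peak of 1.82 and a Mel+LPS-up peak of 1.88 at different places of its single exon, and the demethylase gene Fto had a Mel+LPS-up peak of 1.36, 32 bases of which lay in exon 1. Potassium channel genes had 11 peaks in 8 genes. Kcnc1 had a Mel+LPS-down peak of 6.09 and an LPS-up peak of 1.59, and Kcnip3 had an LPS-down peak of 5.16. Leukocyte and endothelial genes had 27 peaks in 20 genes, and 17 of their 19 Mel+LPS vs LPS peaks were up (89.5%, 68.6 to 97.1, an interval that includes the 80.4% of all first-exon peaks). Mmrn1, the multimerin of platelets and endothelium, had 8.41 (Mel+LPS-up), Cysltr2, a leukotriene receptor gene, had 7.16 (LPS-up) and Blnk, the B-cell linker gene, had 6.15 (Mel+LPS-up).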

How the data were processed

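Uterine RNA of 3 treatments was profiled by m6A-seq, with 3 input and 3 immunoprecipitated libraries each. Per the submitters' notes, Fastp served for trimming, STAR 2.5.2a for alignment (build mm10), exomePeak2 for calling peaks, MACS2 (given as version 3.4) for the difference between treatments and ChIPseeker 1.22.1 for annotation. How replicates were combined and libraries scaled is not given in the sources used here. The score deposited by the authors is the log10 likelihood ratio from MACS2, 1 per peak and comparison, at least 1.01 in these tables; read depth is unknown. The deposited positions, widths and distances are in bases. The deposited LPS-down table ends within chromosome 10 and was used in full for counts of members, all of which lay on chromosomes 1 to 9, and on these chromosomes for shares of up peaks.

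Exon rank, transcript and host gene were read from the annotation. Peaks were placed, by host symbol and chromosome, on 1 coding GENCODE transcript (mouse release M21) per gene, chosen by APPRIS level and coding length, and motifs were counted in its sequence. Host symbols ending in a hyphen and a digit lie on alternate or unplaced scaffolds (37 peaks), whose reads may be shared with near-identical copies. The members and gene lists were chosen with earlier results of these data known, and the lists of receptivity, TGF-β, m6A, potassium channel and leukocyte genes after the hosts were listed. Named genes are the 5 highest hosts per table, the 6 with most peaks, the 3 highest per list and the 8 hosts of at least 3 tables with the highest lowest-table score, beside those said to be chosen after their values were seen; 1 gene that this rule names is not reported here. No test was run. Alternatives were curated transcripts only, 1 peak per host and table, matching assigned gene, scores of at least 3 or 6, omission of single-exon transcripts, a shift of 100 bases, GGAC and any reference transcript. Placement and motif counting were tested on simulated data. Python 3.11.15, numpy 2.4.6, pandas 2.3.3, scipy 1.17.1 and matplotlib 3.10.9 were used.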

Additional observations from a re-analysis of the deposited data

How the results depend on the processing

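A value is called moved when it left the main 95% interval; the cause was not tested except where the setting itself fixes it. Of 80.4% up in Mel+LPS vs LPS, 74.2% were up at scores of at least 3 and 84.7% on chromosomes 1 to 9, beside 59.3%, 48.4% and 60.04% of all peaks, and the share for LPS vs Veh (44.8%) stayed within its interval under each alternative run (38.8% to 49.1%). First exons were 2.001% of all peaks, 1.74% with curated transcripts only and 1.29% at scores of at least 3. The median score of 2.06 became 2.15 without single-exon transcripts. The share at a score of at least 3 (28.0%) became 8.39% at 6. The share of single-exon transcripts (32.7%) became 36.9% with curated transcripts, 29.4% with 1 peak per host and table, 24.8% at scores of at least 3 and 45.4% with the centre in exon 1. The share in coding sequence (99.8%) was 100.0% without single-exon transcripts and 95.4% after a shift of 100 bases toward the 5′ end, and the share in exon 1 among centres on any exon (502 of 523, 96.0%) was 97.8% with any transcript. DRACH per 1000 bases (22.2) was 23.3 at scores of at least 3 and 20.5 after the shift, and GGAC alone gave 8.36. The median distance of centres in exon 1 from the transcript start (958.5 bases, beside 586.5 bases from peak to assigned start over all 822 peaks) was 880 with 1 peak per host and table and 783 without single-exon transcripts. Over 237 recomputed values, 43 of the summary values and 141 of the values per table stayed within the interval, and 18 and 35 left it. Settings on chromosomes, scaffolds, cadherins, shared scores and centres in exon 1 were chosen after seeing the data. No paired analysis was possible because the tables hold no value per library, and for the same reason no replicate could be left out. Counts of reads, and so the depth limit of each peak, were unknown.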
